A study of Mus musculus with 30 samples.

Results

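The genes described here are Olfr449, Olfr448, Olfr447, Olfr446 and Olfr437, 5 odorant receptor (OR) genes that lie close together on mouse chromosome 6. They were chosen by name from the 564 OR genes of the deposited table, as neighbours of Olfr447. Olfr447 had been singled out for its higher count in ΔOlfr7Δ mice, so the values of these genes in ΔOlfr7Δ mice against their wild-type controls are given as a description, with no test. All 5 genes were read in every lane and passed the limit on low counts, a wild-type median of at least 100 background-subtracted counts.

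OR genes encode the receptors with which olfactory sensory neurons detect odorants. A mature neuron expresses a single OR gene from a single allele, so that in RNA of the whole tissue the level of an OR gene depends on how many neurons have chosen it and on how much RNA each of them holds. These quantities cannot be told apart in bulk samples. Enhancer elements such as the H element and the P element act on OR genes of their own chromosome, near to them. In the naming by MOR family that RefSeq keeps among its synonyms, Olfr448, Olfr447, Olfr446 and Olfr437 belong to family MOR261, and Olfr449 to family MOR103. RefSeq lists all of them as protein coding. What the receptors bind was not measured.

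RNA of whole olfactory mucosa, the tissue that holds these neurons, was counted with NanoString probes in 30 mice of 21 days, 1 mouse and 1 μg of RNA per lane, with no amplification step. The ΔOlfr7Δ strain carries a homozygous deletion of the Olfr7 cluster of OR genes on another chromosome. Its 6 mice (2 females and 4 males) and 6 wild-type mice (4 females and 2 males), all inbred 129SvEv, were read on cartridge MK38. The ΔHxΔP mice are double homozygous for the deletions of the H element and of the P element (Berry), neither of which lies on chromosome 6. The 6 ΔHxΔP mice (1 female and 5 males) and 6 wild-type mice (3 females and 3 males) of the companion wild-type strain were read on cartridge MK29. A further 6 wild-type mice (4 females and 2 males), companions of the ΔH strain, were read on cartridge MK37, and the 18 mice of both cartridges have a mixed C57BL/6J x 129SvEv background. On MK38 and MK29 the wild-type mice took the first 6 lanes and the mutants the others, and a lane's place on these cartridges follows genotype. Background strain and cartridge cannot be told apart either, nor can colony and cartridge of the mixed wild-type groups.

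Raw counts summed over the 549 OR genes read in all lanes ranged from 616182 to 1010264 per lane. The markers of olfactory sensory neurons were present in every mouse. Raw counts of Omp, the olfactory marker protein of mature neurons, ranged from 80769 to 135506, and those of Cnga2, a subunit of the olfactory transduction channel, from 85193 to 144886. Adcy3, Gnal and Ano2 also act in olfactory transduction, and the lowest of their counts was 5112, for Ano2. These 5 genes set the scale, so they are no independent check. A scaled count is the raw count after scaling on 6 positive controls and then on these reference genes, over all 30 lanes together. The background, the mean plus 2 SD of 8 negative controls, lay between 32.4 and 56.2 scaled counts per lane, far below every count of the 5 genes.

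Each OR gene was read with a capture probe and a reporter probe, and all counts below rest on them. They are shown here, 5′ to 3′ as deposited, to make plain which stretch of each gene was counted and how distinct it is. The capitals mark the longest run of bases that the probe shares with any of the 1126 probes of other OR genes.
Olfr449 capture: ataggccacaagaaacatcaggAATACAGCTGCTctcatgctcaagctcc
Olfr449 reporter: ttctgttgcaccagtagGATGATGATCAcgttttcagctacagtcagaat
Olfr448 capture: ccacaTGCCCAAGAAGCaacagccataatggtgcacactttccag
Olfr448 reporter: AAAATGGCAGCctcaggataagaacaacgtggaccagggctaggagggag
Olfr447 capture: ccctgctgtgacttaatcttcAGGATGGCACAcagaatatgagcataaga
Olfr447 reporter: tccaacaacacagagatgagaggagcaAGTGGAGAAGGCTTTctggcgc
Olfr446 capture: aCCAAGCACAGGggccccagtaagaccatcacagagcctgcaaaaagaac
Olfr446 reporter: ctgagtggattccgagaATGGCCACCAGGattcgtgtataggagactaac
Olfr437 capture: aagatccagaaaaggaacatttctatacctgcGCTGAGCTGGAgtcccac
Olfr437 reporter: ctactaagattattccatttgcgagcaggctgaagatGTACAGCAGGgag

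The longest shared runs were between 10 and 15 bases. The run of 15 bases was in the reporter probe of Olfr447 and recurs in the capture probe of Olfr1052. Laid side by side without gaps and with shifts of up to 10 bases, no member's probe matched another gene's probe at more than 31 bases, a value reached by the reporter probes of Olfr447 and Olfr38. Among the 5 genes themselves the most similar probes, of Olfr447 and Olfr446, matched at 25 bases. The probes thus target different stretches or differ in sequence, but probes were compared here only with probes, not with transcripts. Their GC content lay between 42.0% and 54.0%, around the median of 46.0% over all 1128 OR probes.

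RefSeq windows around the gene start were at hand for Olfr448, Olfr447 and Olfr446 (GRCm38.p6, 250 bases before the start and 50 after it). All 3 genes lie on the plus strand and follow each other in this order. Their first 50 bases, each beginning with ATG, are shown to compare these adjacent members of 1 family. Capitals mark the longest run that a gene shares with either of the other two.
Olfr448, chr6:42896453-42896502: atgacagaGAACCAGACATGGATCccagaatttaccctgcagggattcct
Olfr447, chr6:42911525-42911574: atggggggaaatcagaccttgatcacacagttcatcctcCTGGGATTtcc
Olfr446, chr6:42927233-42927282: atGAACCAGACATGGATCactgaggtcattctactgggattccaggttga

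Olfr448 and Olfr446 shared a run of 16 bases there, and Olfr447 shared at most 8 bases, with Olfr446. Letters of a homeodomain type, TAATTA and TAATTG, and the letters CCCNNGGG were searched on both strands of the windows. None of the 3 windows held any of them. TAATTA was held by 18.6% of 948 OR windows (5.29% of all 32851 windows), TAATTG by 23.2% (8.0%) and CCCNNGGG by 3.06% (13.7%). TAATTA reads the same on both strands, TAATTA and TAATTG can overlap in part, and CCCNNGGG also reads the same on both strands. The absence of a match says only that these letters are not in these windows.

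**Figure D1:**
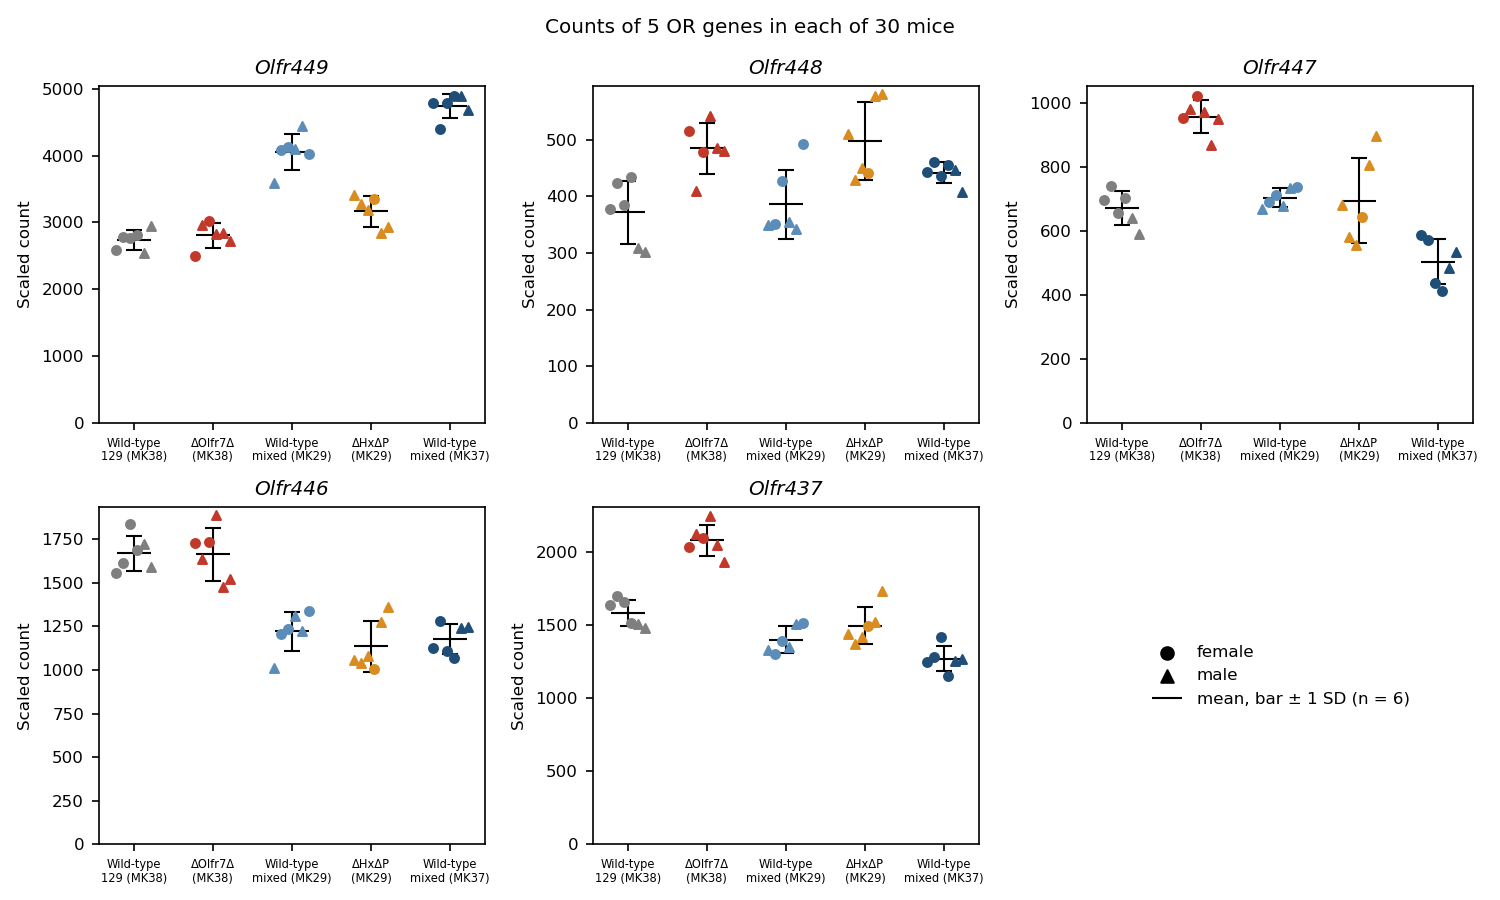
Scaled counts (vertical axes, from 0) of each of the 5 OR genes in every mouse, by group; points are mice, lines and bars the mean ± 1 SD of 6 mice. For Olfr447 and Olfr437 every ΔOlfr7Δ mouse lies above every wild-type mouse of all 3 wild-type groups, and these mice were used to choose the set. Olfr435, outside the set, does the same (at least 1012 against at most 981). For Olfr446 all 129SvEv mice lie above all mixed-background mice, as for Olfr450, a gene outside the set. The shares of all OR genes that separate in these ways were not counted.

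By their means, the groups stood in a different order for each gene, but most neighbouring groups overlapped and their order is not settled. Olfr447 had 956 ± 51.0 scaled counts (SD, n = 6) in ΔOlfr7Δ mice, with a lowest value of 867, a median of 960 and a highest value of 1022. Next came the wild-type mice of MK29 with 703 ± 29.5 (668 to 738, median 700), the ΔHxΔP mice with 694 ± 132 (557 to 895, median 662) and the wild-type 129SvEv mice with 671 ± 52.7 (591 to 739, median 677). The lowest group was that of the wild-type mice of MK37 with 504 ± 71.4 (411 to 587, median 509). The 3 groups in the middle overlapped and their neighbouring means differed by less than their SDs. The highest and the lowest group stood apart from their neighbours in this order, and the mean of the highest was 1.90 times that of the lowest. Only the highest ΔHxΔP mouse reached into the range of the ΔOlfr7Δ mice. At the other end, ΔHxΔP mice 1442 (580) and 1443 (557) lay within the range of the wild-type mice of MK37.

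Olfr437, the last member in gene order, had the same groups as Olfr447 at both ends of its order. It had 2081 ± 107 scaled counts (SD, n = 6) in ΔOlfr7Δ mice, from 1930 to 2251 with a median of 2073. The wild-type 129SvEv mice followed with 1583 ± 91.9 (1484 to 1699, median 1575), then the ΔHxΔP mice with 1497 ± 128 (1370 to 1733, median 1468). The wild-type mice of MK29 had 1401 ± 91.1 (1306 to 1515, median 1373) and those of MK37 had 1272 ± 85.8 (1155 to 1421, median 1261). Only the ΔOlfr7Δ mice stood apart, and each of the other groups overlapped the next. How many of all OR genes have every ΔOlfr7Δ mouse above all wild-type mice was not counted.

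Olfr448 had the lowest counts of the 5 genes, and its groups formed a continuous series. The ΔHxΔP mice had 498 ± 68.9 scaled counts (429 to 580, median 480), the ΔOlfr7Δ mice 484 ± 44.4 (409 to 541, median 482) and the wild-type mice of MK37 441 ± 18.4 (408 to 461, median 444). The wild-type mice of MK29 had 386 ± 61.1 (342 to 493, median 352) and those of 129SvEv 372 ± 55.7 (301 to 434, median 381). Every neighbouring pair of groups overlapped and differed by less than the sum of their SDs. In wild-type 129SvEv mice the spread of Olfr448 was among the widest of all OR genes, an SD of 0.22 on the log2 scale against a median of 0.11 over 549 OR genes, place 20 from the widest.

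Olfr446, the gene next to Olfr447 in this order, split by background strain and cartridge. It had 1668 ± 102 scaled counts in wild-type 129SvEv mice (1559 to 1835, median 1652) and 1664 ± 151 in ΔOlfr7Δ mice (1477 to 1887, median 1683). The wild-type mice of MK29 had 1222 ± 114 (1014 to 1336, median 1231), those of MK37 1178 ± 87.2 (1067 to 1279, median 1184) and the ΔHxΔP mice 1136 ± 146 (1005 to 1363, median 1070). No mixed-background mouse reached the lowest 129SvEv mouse, and within each background the groups overlapped. How many of all OR genes separate in this way was not counted. Olfr446 is not alone in it on this stretch of chromosome 6. Olfr450 had at least 709 scaled counts in every 129SvEv mouse and at most 678 in every mixed-background mouse. Olfr455 had at most 2090 in the former and at least 2722 in the latter.

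Olfr449, the member of another family, was highest in the mixed wild-type groups and lowest in the 129SvEv groups. It had 4739 ± 181 scaled counts in wild-type mice of MK37 (4404 to 4886, median 4790) and 4059 ± 271 in those of MK29 (3594 to 4439, median 4090). The ΔHxΔP mice had 3166 ± 229 (2849 to 3408, median 3233), the ΔOlfr7Δ mice 2812 ± 187 (2495 to 3020, median 2831) and the wild-type 129SvEv mice 2735 ± 149 (2539 to 2942, median 2770). The ΔHxΔP mice lay below all wild-type mice of mixed background, and the other neighbouring groups overlapped.

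A ratio of 2 genes counted in the same lane does not change with the scaling of that lane. The raw count of Olfr447 was 0.403 ± 0.0428 of that of Olfr446 in wild-type 129SvEv mice (SD, n = 6) and 0.427 ± 0.0518 in wild-type mice of MK37. It was 0.577 ± 0.0391 of it in ΔOlfr7Δ mice, 0.579 ± 0.0480 in wild-type mice of MK29 and 0.608 ± 0.0572 in ΔHxΔP mice. The first 2 groups ran from 0.357 to 0.521 and the last 3 from 0.514 to 0.659, so 1 wild-type mouse of MK37 lay within the range of the higher groups. The ratio of these adjacent genes in wild-type mice of MK29 was thus like that of both mutant groups, and the probes of the genes differ, so that the ratio itself does not compare their levels. For Olfr437 the ratio to Olfr446 was 0.952 ± 0.0789 in wild-type 129SvEv mice and 1.26 ± 0.0785 in ΔOlfr7Δ mice, without overlap. It was 1.15 ± 0.102 in wild-type mice of MK29, 1.08 ± 0.105 in those of MK37 and 1.32 ± 0.0966 in ΔHxΔP mice, with overlap. For Olfr448 the ratio was 0.223 ± 0.0352 in wild-type 129SvEv mice, 0.292 ± 0.0280 in ΔOlfr7Δ mice, 0.316 ± 0.0411 in wild-type mice of MK29, 0.376 ± 0.0343 in those of MK37 and 0.438 ± 0.0264 in ΔHxΔP mice. Olfr446 had close means in wild-type 129SvEv and ΔOlfr7Δ mice (1668 and 1664 scaled counts). The ratios to it there largely restate the counts of the other gene, in the mice that chose the set. How many pairs of OR genes separate these groups was not counted. These ratios were formed after the counts had been seen and carry no test.

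**Figure D2:**
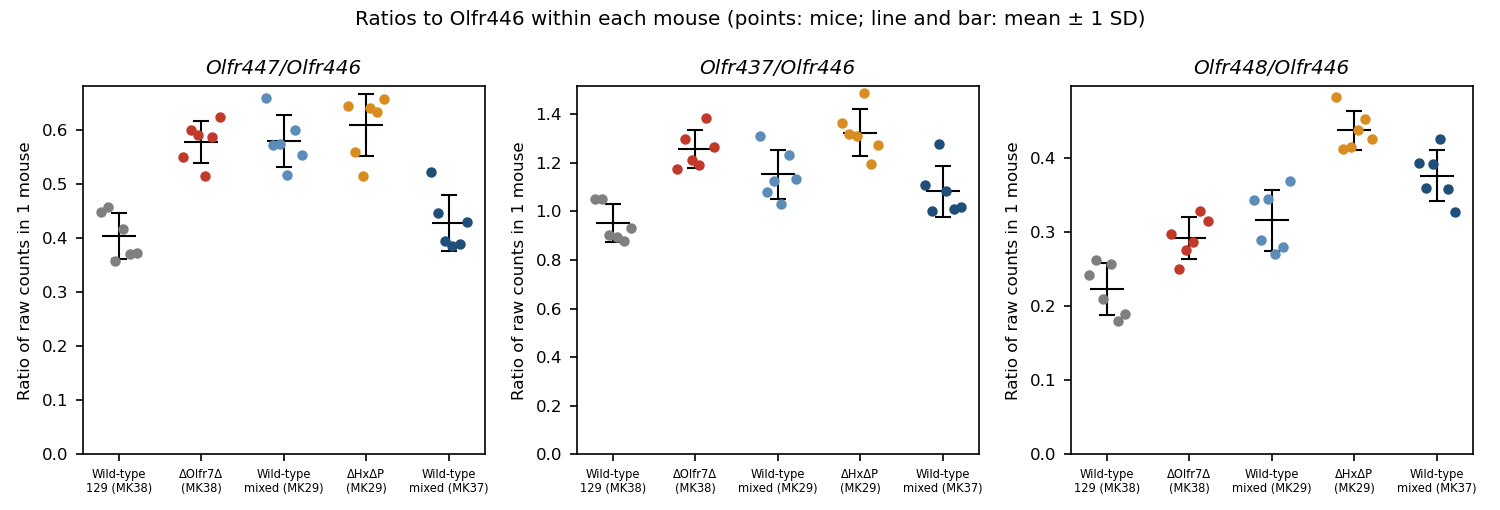
Ratio of the raw count of Olfr447, Olfr437 and Olfr448 to that of Olfr446 in the same mouse (vertical axes, from 0), by group; points are mice, lines and bars the mean ± 1 SD of 6 mice. The ratio of Olfr447 lies at or below 0.521 in wild-type 129SvEv and MK37 mice and at or above 0.514 in the other 3 groups.

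ΔOlfr7Δ mice were compared with wild-type 129SvEv mice to see which OR genes outside the deleted cluster differ between them. This comparison chose the members, and its values are a description. On the scale of log2(scaled count + 1), Olfr447 was 0.51 higher in ΔOlfr7Δ mice (standard error 0.071), Olfr437 0.39 higher (0.062) and Olfr448 0.39 higher (0.096). Olfr449 had a difference of 0.04 (0.062) and Olfr446 one of -0.01 (0.068). The median over the 552 OR genes fitted was 0.06, and Olfr447 stood at place 4, Olfr437 at place 23 and Olfr448 at place 25 from the highest. Just inside and just outside the set, Olfr449 at its start and Olfr450 next to it had differences of 0.04 and 0.16, and at its end Olfr437 and Olfr13 had 0.39 and 0.26. For Olfr447 and Olfr437 the lowest ΔOlfr7Δ mouse exceeded the highest 129SvEv wild type, as held for 11.1% of the 552 genes. With limma, 23.4% of these genes were higher at a Benjamini-Hochberg adjusted p under 0.05. These shares, the places and the median are taken over all genes fitted. The genes of the deleted cluster, which ΔOlfr7Δ mice lack, are included, so the shares of higher genes outside it are larger. Since the rule used these mice, nothing is read from the members' places.

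The scale of this comparison moved with the controls used. Scaled on the positive controls alone, the median OR gene was 0.24 higher in ΔOlfr7Δ mice and all 5 genes moved up with it, to 0.69 for Olfr447, 0.57 for Olfr437, 0.57 for Olfr448, 0.22 for Olfr449 and 0.17 for Olfr446. Since a scaling shifts all genes of a lane alike, differences from the median OR gene do not depend on it, and they were 0.45 for Olfr447 and -0.07 for Olfr446. On the positive controls, the reference genes themselves had a geometric mean 0.18 higher (log2) in ΔOlfr7Δ mice. Sex was not balanced between these groups. In wild-type 129SvEv mice the 2 males had the lowest counts of Olfr448 (mean 305 against 405 in the 4 females), of Olfr447 (615 against 699) and of Olfr437 (1497 against 1627). Olfr449 (2740 against 2733) and Olfr446 (1656 against 1675) differed little there. In ΔOlfr7Δ mice the 4 males had means of 479 for Olfr448, 942 for Olfr447 and 2087 for Olfr437. The 2 females had 496, 986 and 2068. With sex as a covariate the differences were 0.56 for Olfr447, 0.41 for Olfr437 and 0.47 for Olfr448.

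Of the 552 OR genes fitted, 129 were higher in ΔOlfr7Δ mice and 67 lower, the lower ones including OR genes of the deleted cluster. Of the 9 other OR genes measured on this stretch, 1 was higher in ΔOlfr7Δ mice and none lower. It was Olfr435, also of family MOR261, with a log2 rise of 0.30 (limma adjusted p = 0.00119, standard error 0.071), from 928 ± 62.6 to 1146 ± 94.2 scaled counts with no overlap between groups. Olfr13 and Olfr434, of the same family and between Olfr437 and the end of the stretch, had differences of 0.26 (adjusted p = 0.0501) and 0.17 (adjusted p = 0.0975). The 6 genes on the side of Olfr449 had differences from 0.00 (Olfr455) to 0.16 (Olfr450). Olfr13, Olfr435 and Olfr434 lie within the range of positions by which the set was described, but are not among its 5 names. The log2 counts of Olfr435 had a Pearson's r of 0.70 with those of Olfr447 over the 30 mice. The adjusted p of these neighbours is therefore not independent of the choice of Olfr447 in the same mice.

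**Figure D3:**
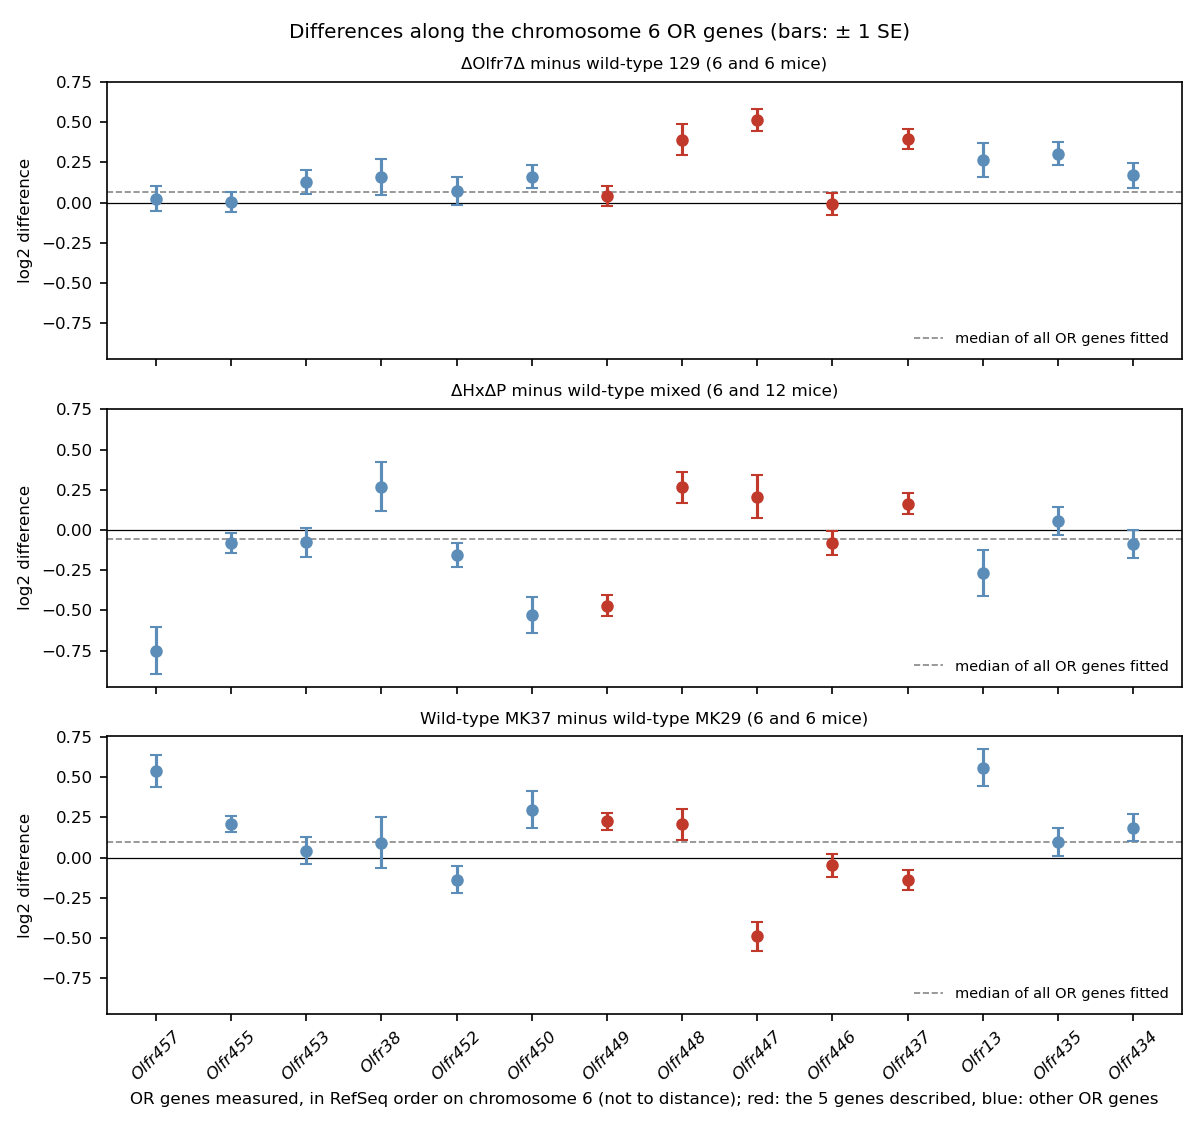
Log2 difference (vertical axes) with ± 1 standard error for 14 OR genes measured on this stretch of chromosome 6, in RefSeq gene order, in 3 comparisons; red points are the 5 members, blue points other OR genes and the dashed line the median of all OR genes fitted. Olfr447 has a difference of 0.51 at the top, 0.21 in the middle and -0.49 at the bottom, and Olfr449 one of 0.04, -0.47 and 0.23.

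ΔHxΔP mice were compared with the 12 wild-type mice of mixed background to ask which OR genes outside the clusters of these elements differ. In ΔHxΔP mice Olfr449 fell by 0.47 in log2 units (limma adjusted p = 1.02e-05, standard error 0.066), from 4399 ± 418 scaled counts (SD, n = 12) to 3166 ± 229 (n = 6). Every mutant lay below all the wild types, as held for 7.90% of the 557 OR genes fitted. Olfr448, the gene next to it, rose by 0.27 (standard error 0.097, adjusted p = 0.0393), from 414 ± 51.9 to 498 ± 68.9, with overlap. Of these OR genes, 10.2% were higher and 23.9% lower, so that 1 of 5 members in each direction is near the background. These shares, like the 7.90%, are taken over all OR genes fitted, with those of the H and P clusters included. None of the 5 genes had every mutant above every wild-type mouse, which held for 1.26% of all genes. Over all genes 57 were higher and 133 lower here, against 105 and 114 with TMM scaling over OR genes. The median difference of all OR genes was -0.06, and that of the 5 members 0.16.

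The other members did not pass the test. Olfr437 had 1497 ± 128 scaled counts in ΔHxΔP mice and 1336 ± 108 in wild-type mice, a log2 difference of 0.16 (standard error 0.064, adjusted p = 0.0534), and it passed under 3 other scalings (0.21 to 0.24, adjusted p from 0.00571 to 0.0264). Over all alternatives other than leaving out 1 mouse its adjusted p ran from 0.00571 to 0.360. Olfr447 had a difference of 0.21 (95% interval -0.07 to 0.49, adjusted p = 0.243) and Olfr446 one of -0.08 (95% interval -0.24 to 0.07, adjusted p = 0.402).

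Which of these genes passed depended on the wild-type group. Against the 6 wild-type mice of MK29, read on the same cartridge, Olfr447 had a difference of -0.04 in ΔHxΔP mice (adjusted p = 0.819), and against the 6 of MK37 it rose by 0.45 (adjusted p = 0.00958). Olfr448 rose by 0.37 against the mice of MK29 (adjusted p = 0.0302), and against those of MK37 it had a difference of 0.16 (adjusted p = 0.174). Olfr437 had differences of 0.09 (adjusted p = 0.360) and 0.23 (adjusted p = 0.0143). Olfr449 fell against both, by 0.36 (adjusted p = 0.000446) and by 0.58 (adjusted p = 5.1e-07). With 1 mouse left out in turn, Olfr449 passed the test in 18 of 18 fits. The difference of Olfr448 stayed between 0.22 and 0.31 in these fits and passed in 10 of 18.

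**Figure D4:**
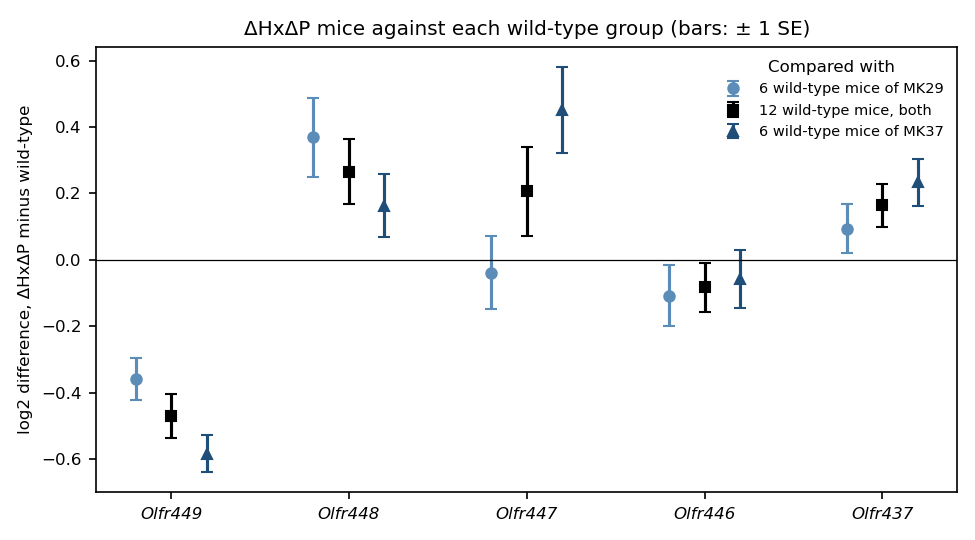
Log2 difference of ΔHxΔP mice from wild-type mice (vertical axis) for each of the 5 genes, with ± 1 standard error, against the wild-type mice of MK29, of both cartridges or of MK37. Olfr449 is below 0 in all 3, at -0.36, -0.47 and -0.58, whereas Olfr447 goes from -0.04 to 0.45.

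Within the ΔHxΔP group, mice 1445 and 1447 stood at one end for all 5 genes. They had the highest counts of Olfr447 (807 and 895), Olfr446 (1274 and 1363), Olfr448 (577 and 580) and Olfr437 (1524 and 1733), and the lowest of Olfr449 (2849 and 2926). The median OR gene had 1133 and 1168 scaled counts in their lanes, against 975 to 1055 in the other 4 ΔHxΔP lanes, and the part of this in the spread of the 5 genes was not tested. Without mouse 1447 the rise of Olfr448 was 0.22 (adjusted p = 0.0971), and without mouse 1445 it was 0.22 (adjusted p = 0.107). The SD of Olfr447 over the ΔHxΔP mice was 0.27 on the log2 scale, against 0.18 for the median OR gene, and over the wild-type mice of MK29 it was 0.06 against 0.14, place 535 of 549.

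Of the 9 other OR genes measured on the stretch, none was higher in ΔHxΔP mice and 2 were lower, near the 23.9% lower over all OR genes. Olfr450, the gene beside Olfr449, fell by 0.53 (adjusted p = 0.00115) and Olfr457, the first of the stretch, fell by 0.75 (adjusted p = 0.000499). These falls are against all 12 wild-type mice and are smaller against those of MK29. Olfr450 had mean scaled counts of 365 in ΔHxΔP mice, 475 in wild-type mice of MK29 and 588 in those of MK37. For Olfr457 these means were 364, 504 and 733. The genes between them, Olfr455, Olfr453, Olfr38 and Olfr452, did not pass, with differences from -0.15 to 0.27. Elsewhere on chromosome 6, none of 7 listed OR genes was higher and 4 were lower, with a median difference of -0.25. Of 15 OR genes of family MOR103 other than Olfr449, 5 were lower and 1 higher, with a median difference of -0.14. Over all 557 OR genes 133 were lower and 57 higher, with a median of -0.06, and nothing particular to these short lists is read from their counts.

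Both mixed-background wild-type groups share strain background and tissue, and differ in colony and cartridge. Olfr447 was lower in the mice of MK37 (log2 difference -0.49, limma adjusted p = 0.000379, standard error 0.089), with 504 ± 71.4 scaled counts against 703 ± 29.5 (SD, n = 6 each) and no overlap between groups. Olfr449 was higher by 0.23 (standard error 0.054, adjusted p = 0.0031), with overlap. Olfr448 had a difference of 0.21 (adjusted p = 0.0918), Olfr437 one of -0.14 (adjusted p = 0.0913) and Olfr446 one of -0.05 (95% interval -0.21 to 0.11, adjusted p = 0.609). Thus 2 of 5 members passed, against 40.0% of the 557 OR genes, and 1 of 5 did not overlap, against 20.1%.

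Scaling changed this comparison for the members with small differences. All OR genes had a median difference of 0.10, and 163 were higher and 60 lower. TMM scaling over OR genes brought the median to 0.00, with 108 higher and 114 lower, and with the positive controls alone it was 0.19. A scaling shifts all genes of a lane alike, so the difference of Olfr447 from the median OR gene, -0.59, is fixed. Olfr447 was lower with an adjusted p of at most 0.00649 in all 9 alternatives other than leaving out 1 mouse. Olfr449 did not pass with TMM scaling (0.13, adjusted p = 0.0509) or median-of-ratios scaling (0.11, adjusted p = 0.0764). Olfr437 was lower with these scalings (-0.23, adjusted p = 0.00203, and -0.25, adjusted p = 0.00134). Olfr446 had a difference of 0.04 on the positive controls alone, with the shift of all genes, and one of -0.15 from the median OR gene.

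Among the other 9 OR genes of the stretch, 4 were higher in the mice of MK37 and none lower. Over all 557 OR genes 163 were higher and 60 lower on this scale, so the direction was that of most calls. Olfr457 rose by 0.54 (adjusted p = 0.000436) and Olfr13 by 0.56 (adjusted p = 0.00118). Olfr450, the neighbour of Olfr449, rose by 0.30 (adjusted p = 0.0444) and Olfr455 by 0.21 (adjusted p = 0.00385). The comparison of ΔHxΔP mice used the same wild-type mice.

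Female and male mice of mixed background were compared within groups, 8 females against 10 males. None of the 5 genes passed the test with limma, and 0% of the 557 OR genes did. At an unadjusted p under 0.05 none of the 5 genes and 13 of all OR genes passed, and 20 of all without moderation of the variances. Olfr448 had the largest difference of the 5, 0.09 higher in females (95% interval -0.10 to 0.29, adjusted p = 0.992). With all 30 mice this difference was 0.15 (adjusted p = 0.813). The other 4 genes had differences from -0.05 (Olfr446) to 0.02 (Olfr449).

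Between wild-type backgrounds, 129SvEv mice and mixed-background mice differed most in Olfr449 and Olfr446, in opposite directions. The wild-type 129SvEv mice also serve as controls of the comparison that chose the members, so these values carry no test. Against the mean of both mixed groups on the log2 scale, Olfr449 was 1.60-fold lower in 129SvEv mice (log2 difference -0.68, place 472 of 549 from the highest), and Olfr446 was 1.39-fold higher (0.48, place 77). Olfr437 was 0.25 higher, Olfr447 0.17 higher and Olfr448 had a difference of -0.16. The median over the 549 OR genes was 0.00. Wild-type 129SvEv and MK37 mice differed by more in Olfr447, 671 against 504 scaled counts, than wild-type 129SvEv and MK29 mice, 671 against 703.

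Over the 30 mice, the OR genes whose log2 counts were most like those of Olfr447 were Olfr478 (Pearson's r 0.88), Olfr1052 (0.87), Olfr1152 (0.87), Olfr437 (0.86) and Olfr356 (0.84), out of 548 OR genes with a median r of 0.04. The mice share groups, cartridges and lane scaling, so r describes these lanes. Over the 5 group means r was 0.96, 0.96, 0.93, 0.92 and 0.90 for these genes. Among these means are those of the mice for which Olfr447 had been singled out. With the group means taken out r was 0.65, 0.53, 0.61, 0.55 and 0.58, beside a median of 0.35. The places were then 46, 136, 69, 118 and 94 of 548. Olfr478, the most alike, had 1375 ± 140 scaled counts in ΔOlfr7Δ mice and 777 ± 75.3 in wild-type mice of MK37, its highest and lowest groups, as for Olfr447. Olfr1052, whose capture probe shares the run of 15 bases with the reporter probe of Olfr447, had 3017 ± 252 and 1945 ± 82.2 there.

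Between the members, r over the 30 mice rests largely on the group means, among them those of the ΔOlfr7Δ and wild-type 129SvEv mice by which the genes were chosen. Over all mice Olfr447 had an r of 0.86 with Olfr437, 0.59 with the adjacent Olfr446, 0.33 with the adjacent Olfr448 and -0.66 with Olfr449. With the group means taken out, r among the members was highest with Olfr446, at 0.60, which was place 83 of 548 OR genes. It was 0.55 with Olfr437, 0.52 with Olfr448 and -0.32 with Olfr449, beside a median of 0.35 over all OR genes. For the other OR genes of the stretch it ran from -0.33 (Olfr455) to 0.71 (Olfr453). Olfr449 had a negative r with each of the other 4 genes over the 30 mice, from -0.11 with Olfr448 to -0.73 with Olfr437.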

How the data were processed

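NanoString counts of 30 mice were analysed, 6 in each of 5 groups taken from the sample labels. The authors deposited raw barcode counts per probe and lane, with no scaling and no background subtraction. Lanes were scaled together on 6 positive controls and then on 5 reference genes. OR genes whose background-subtracted counts had a median of 100 or more in wild-type mice were fitted as log2(scaled count + 1), without background subtraction, in limma 3.58.1 (R 4.3.3) with its mean-variance trend, and p-values were adjusted (Benjamini-Hochberg) over all genes fitted. The fit was tested on simulated counts with known lane factors. The simulation had no cartridge or colony effects and no scaling on control genes, so it does not bear on those. Each mouse is 1 animal in 1 lane. The members, gene lists, tests and alternatives were chosen with earlier results of these data known. The text names the 5 members, the OR genes measured on the same stretch of chromosome 6 and the 5 OR genes most like Olfr447. Gene names, order and windows are those of RefSeq (GRCm38.p6), and for the probes no build is stated. Plots were made in Python 3.11.15 (matplotlib 3.10.9).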

Additional observations from a re-analysis of the deposited data

How the results depend on the processing

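In the comparison of ΔHxΔP with wild-type mice, 2 of 5 members were called, and 2 or 3 under 12 alternatives. With tTREAT, a test of log2 background-subtracted counts against a fold change of 1.5 at p of 0.01, none of the members and 23 of all OR genes were called, against 190 here; the test asks for a larger difference. Leaving out 1 mouse gave 1 to 3 members and 169 to 198 OR genes. Olfr448 was not called without wild-type mouse 1450, 1452, 1454 or 1456 of MK29 (0.24 to 0.25, adjusted p 0.056 to 0.0605), without wild-type mouse 1478 of MK37 (0.27, adjusted p = 0.0513), or without ΔHxΔP mouse 1437 (0.26, adjusted p = 0.0734), 1445 or 1447. Olfr437 was called without wild-type mouse 1456 or 1457 of MK29 or without ΔHxΔP mouse 1442 (0.18 to 0.19, adjusted p 0.0329 to 0.0408). Between the wild-type groups 2 or 3 members were called in all 9 alternatives and 2 or 3 with 1 mouse left out, where OR genes called ran from 203 to 232. There, Olfr448 was also called without mouse 1457 of MK29 (0.28, adjusted p = 0.0108) and on the positive controls alone (0.30, adjusted p = 0.034), and Olfr437 without mouse 1472 of MK37 (-0.17, adjusted p = 0.0463). Between the sexes 0 members and 0 OR genes were called under all 9 alternatives and with 1 mouse left out. In ΔOlfr7Δ mice the median difference of the 5 members was 0.39, from 0.33 to 0.42 with 1 mouse left out, and 0.57 on the positive controls alone, with which all OR genes shifted. The planned models of raw counts were not run, because the layout of the deposited table did not pass the check required for them. No paired analysis was possible because the replicate numbers only name the mice. The lowest raw count of a member was 249, for Olfr448, and the part of counting depth in the spread was not tested.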
